A study of Mus musculus with 28 samples.

Results

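The genes described here are the Notch receptors Notch1 and Notch2, the ligands Dll1, Dll4 and Jag1, the receptor-modifying enzyme Lfng, the DNA-binding transducer Rbpj, and the transcription factors Hes1, Hes6 and Atoh1. They were chosen by gene name, and all 10 were found among the 54354 genes of the count table, each in 1 row. A filter on low counts left 12495 genes for testing, among them 9 of the 10. Lfng did not pass it. Since the table holds bulk RNA, fewer cells of a type and less RNA per cell cannot be told apart in any of these values.

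RNA was sequenced from sorted cells of the small intestine of Lgr5-GFP mice, whose green fluorescence reports the stem cell receptor gene Lgr5. Every library carried that genotype, and the labels do not describe the allele, the age or the sex of the animals. The 4 groups of 7 libraries were Lgr5-high cells on cystine diet, Lgr5-high cells on control diet, Lgr5-low cells on cystine diet and Lgr5-low cells on control diet; cystine is the oxidised dimer of cysteine. The extraction protocol in the labels speaks of organoids while the series description speaks of intestine, and the labels do not tie libraries to separate animals; every p-value therefore reflects only how much these libraries vary.

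In the intestinal crypt, Delta-like ligands on neighbouring cells bind Notch receptors, which are then cut by ADAM and gamma-secretase proteases so that the intracellular part enters the nucleus and joins RBPJ. RBPJ with that part switches on Hes1, a repressor that keeps Atoh1 off, and cells in this state remain progenitors or become absorptive enterocytes. Cells that escape the signal express Atoh1, the master factor of goblet, Paneth and enteroendocrine cells, and Atoh1 raises the Delta-like ligands that hold neighbouring cells in the Notch-on state. Lfng adds sugar to Notch receptors and changes how they respond to different ligands.

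Total counts per library, in M (mega), ranged from 2.75 to 14.9 M in Lgr5-high cells on cystine diet, 4.05 to 21.4 M in Lgr5-high cells on control diet, 4.11 to 21.5 M in Lgr5-low cells on cystine diet and 3.09 to 18.9 M in Lgr5-low cells on control diet. The sort label held: Lgr5 itself was higher in all 7 Lgr5-high libraries than in all 7 Lgr5-low libraries on either diet. The sum of 10 stem cell markers had medians of 5414 and 5937 counts per M (CPM, scaled by TMM factors) in Lgr5-high cells on cystine and control diet, against 1853 and 1517 CPM in Lgr5-low cells. Markers of other cells were present too, and their part in the results below was not tested. The sum of 13 macrophage markers ranged from 24.7 to 691 CPM in Lgr5-high cells on cystine diet (median 412), from 28.6 to 62.6 CPM in Lgr5-high cells on control diet (median 49.9), from 34.2 to 151 CPM in Lgr5-low cells on cystine diet and from 12.5 to 83.5 CPM in Lgr5-low cells on control diet. Goblet markers summed to medians of 14940 and 14370 CPM in Lgr5-high cells on cystine and control diet, against 29440 and 29200 CPM in Lgr5-low cells. Endothelial cells also use Notch1 and Dll4, and the sum of 10 endothelial markers ranged from 104 to 136 CPM and 65.8 to 130 CPM in Lgr5-high cells on cystine and control diet, against 137 to 324 CPM and 127 to 268 CPM in Lgr5-low cells. Of these markers Pecam1 held 43401 counts and Esam 934 in all 28 libraries together, and the other 8, among them Cdh5 and Kdr, held between 2 and 112 and were not tested. Pecam1 was lower in Lgr5-high cells in the mean of both diets (log2 fold change -0.96 ± 0.13, SE, adjusted p = 4.96e-06). Esam, the other tested marker, had a positive log2 fold change there (0.83) and did not pass.

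The promoters of the lineage switch genes are shown because the repression of Atoh1 by Hes1, and the place of Hes6 beside it, are read through DNA sites of basic helix-loop-helix factors. The sequence before the start of each gene came from RefSeq (GRCm38.p6), where 9 of the 10 genes had an entry. Hes1 had none. Of these, only the windows of Atoh1 and Hes6 lay wholly outside annotated exons, and both are given as 250 bases that end at the base before the start, with class C sites (CACGNG, a HES family motif, on either strand) in capitals. The Atoh1 window lies on the plus strand at chr6:64728875-64729124 and that of Hes6 on the minus strand at chr1:91414039-91414288.
Atoh1: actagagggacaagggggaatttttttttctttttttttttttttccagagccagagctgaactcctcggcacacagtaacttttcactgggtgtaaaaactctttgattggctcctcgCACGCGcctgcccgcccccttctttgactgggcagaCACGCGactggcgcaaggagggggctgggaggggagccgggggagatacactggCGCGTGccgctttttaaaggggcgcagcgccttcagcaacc
Hes6: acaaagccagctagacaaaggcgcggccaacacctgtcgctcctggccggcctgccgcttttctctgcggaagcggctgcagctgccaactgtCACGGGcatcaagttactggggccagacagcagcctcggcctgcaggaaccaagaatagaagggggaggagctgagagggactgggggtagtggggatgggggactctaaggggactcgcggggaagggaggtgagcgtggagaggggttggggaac
The Atoh1 window held 3 class C sites, beginning 131, 95 and 41 bases before the start, and the Hes6 window held 1, beginning 157 bases before it. Among all 32851 promoter windows of this length in the table, 23.5% held at least 1 class C site and 1.11% held 3 or more. Of the windows not printed here, that of Lfng also held 3 class C sites and that of Jag1 held 2. Those of Notch2, Dll1 and Dll4 held 1 each, and those of Notch1 and Rbpj held none. The Atoh1 window held no RBPJ core (TGGGAA, in 21.6% of all windows), no N box (CACNAG, in 36.7%) and no E box (CANNTG, in 66.2%). In the Hes6 window 3 E boxes were found, at 220, 171 and 164 bases before the start, with no RBPJ core and no N box. RefSeq lists a further Hes6 start, whose window (chr1:91413223-91413472, minus strand) also lay outside exons and held 1 N box and 1 E box, with no class C site and no RBPJ core. A class C site can also read as an E box (CACGTG) or an N box (CACGAG), and neither printed window held such a site. These matches describe letters in a window and were not tied to binding.

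**Figure D1:**
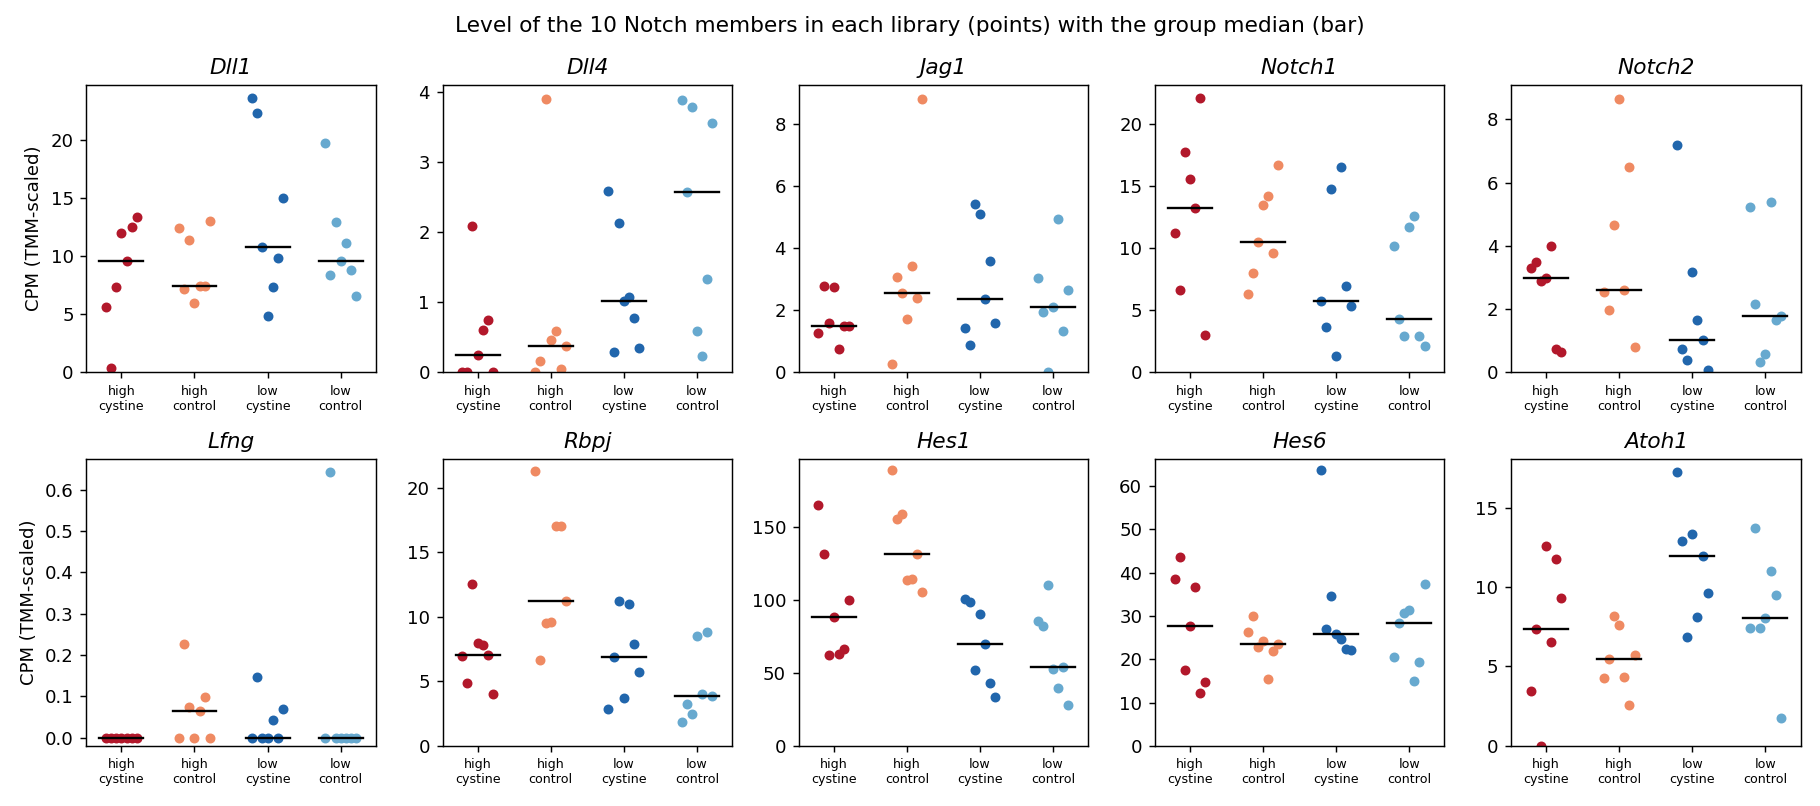
Each panel plots the TMM-scaled CPM of 1 gene on a linear axis, with a point for each of the 28 libraries and a bar at the median of each group of 7, for Lgr5-high and Lgr5-low cells on cystine and control diet. Hes1 reaches 189 CPM and has the highest median in every group, and Lfng stays under 1 CPM in every library. For all 10 genes the groups overlap between the populations on each diet and between the diets in each population.

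The populations were compared on control diet first. Hes1 and Rbpj rose in Lgr5-high cells, 2.13-fold and 2.76-fold, and no gene of the set fell. These were 2 of the 9 tested genes, where 1.8% of all tested genes were called, 0.784% higher and 1.02% lower (adjusted p under 0.05 in the quasi-likelihood test of edgeR with Benjamini-Hochberg adjustment over all tested genes, the test behind every adjusted p here unless another is named). The median log2 fold change of the 9 was 0.49, beside -0.0097 over all tested genes, with 5 positive and 4 negative values. None of the 10 genes had groups that did not overlap in any of the 4 pairings of groups, where 1.3% and 0.96% of all tested genes did so between the populations on cystine and control diet, and 0.216% and 0.064% between the diets in Lgr5-high and Lgr5-low cells.

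Hes1 (chromosome 16, 30064384 to 30067796, plus strand, GRCm38; protein coding) is the main effector of Notch in the crypt. On control diet its level ran from 105 to 189 CPM in Lgr5-high libraries with a median of 131 CPM, against 28.1 to 110 CPM in Lgr5-low libraries with a median of 54.1 CPM. The 7 Lgr5-high libraries held 105, 114, 114, 131, 155, 159 and 189 CPM, and 6 of them lay above every Lgr5-low library. The highest Lgr5-low library, replicate 3, reached just past the lowest Lgr5-high library, replicate 7. On the log2 scale the difference was 1.09 ± 0.26 (SE, adjusted p = 0.0204, 95% interval 0.56 to 1.63). The call was lost without Lgr5-low replicate 5, 6 or 7 or Lgr5-high replicate 1, 2 or 3, each left out singly, with adjusted p between 0.0523 and 0.0639 and log2 fold changes of 0.97 to 1.05. Without the libraries under 5 M counts, adjusted p was 0.119 at a log2 fold change of 0.92.

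Rbpj (chromosome 5, 53466152 to 53657362, plus strand, GRCm38; protein coding) encodes the factor through which all Notch receptors act on DNA, and it represses the same targets when no receptor fragment is bound. On control diet it ran from 6.62 to 21.3 CPM in Lgr5-high libraries (median 11.2) and from 1.86 to 8.80 CPM in Lgr5-low libraries (median 3.85). Again 6 of 7 Lgr5-high libraries lay above every Lgr5-low library, and replicate 2 fell among the Lgr5-low values. The log2 fold change was 1.47 ± 0.40 (SE, adjusted p = 0.0427, 95% interval 0.66 to 2.27). This call was less firm than that of Hes1 in the settings tried: it was kept without Lgr5-low replicate 4 or 6 or Lgr5-high replicate 2, and lost without any of the other 11 libraries in turn (adjusted p between 0.0514 and 0.0983). It was also lost without the libraries under 5 M counts (1.18, adjusted p = 0.181) and in limma-voom (1.01, adjusted p = 0.120).

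A processed copy of Rbpj, Rbpj-ps3, held 1264 counts in the 28 libraries together against 2807 for Rbpj itself. How the authors' quantification split reads between them is not given in the sources used here, so the Rbpj values are uncertain to that extent. The copy ran from 0.728 to 13.0 CPM in Lgr5-high cells on cystine diet, 0 to 38.7 CPM in Lgr5-high cells on control diet, 0 to 16.1 CPM in Lgr5-low cells on cystine diet and 0 to 13.5 CPM in Lgr5-low cells on control diet. With both rows summed, the control diet log2 fold change was 1.13 and no longer passed (adjusted p = 0.114).

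Between the populations on cystine diet, none of the 9 tested genes passed, where 2.64% of all tested genes did, 1.1% higher and 1.54% lower. At an unadjusted p under 0.05 the count was again 0 of 9, beside 15.53% of all tested genes, and DESeq2 and limma-voom called none. Hes1 ran from 62.2 to 165 CPM in Lgr5-high libraries (median 88.0) against 33.5 to 101 CPM in Lgr5-low libraries (median 69.6), and 2 of 7 Lgr5-high libraries exceeded every Lgr5-low value. Its log2 fold change was 0.48 ± 0.26 (SE, adjusted p = 0.396). Rbpj had medians of 7.0 CPM in Lgr5-high and 6.89 CPM in Lgr5-low libraries, with ranges of 4.03 to 12.5 and 2.87 to 11.2 CPM, so that the groups covered nearly the same span. Its log2 fold change of 0.04 had a 95% interval of -0.75 to 0.84.

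Averaged over both diets, Hes1 was the gene that passed, 1.72-fold higher in Lgr5-high cells (0.78 ± 0.19 on the log2 scale, SE, adjusted p = 0.00465), where 8.8% of all tested genes were called, 3.75% higher and 5.05% lower. It passed in each of the 8 other settings and without each of the 28 libraries in turn. Rbpj followed at 0.75 ± 0.28 (SE, adjusted p = 0.0837), and passed with DESeq2 (adjusted p = 0.0327) and with a term for a male and a female class of libraries (adjusted p = 0.0359). At an unadjusted p under 0.05 the count was 3 of 9, with Notch1 as the third, beside 22.54% of all tested genes.

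**Figure D2:**
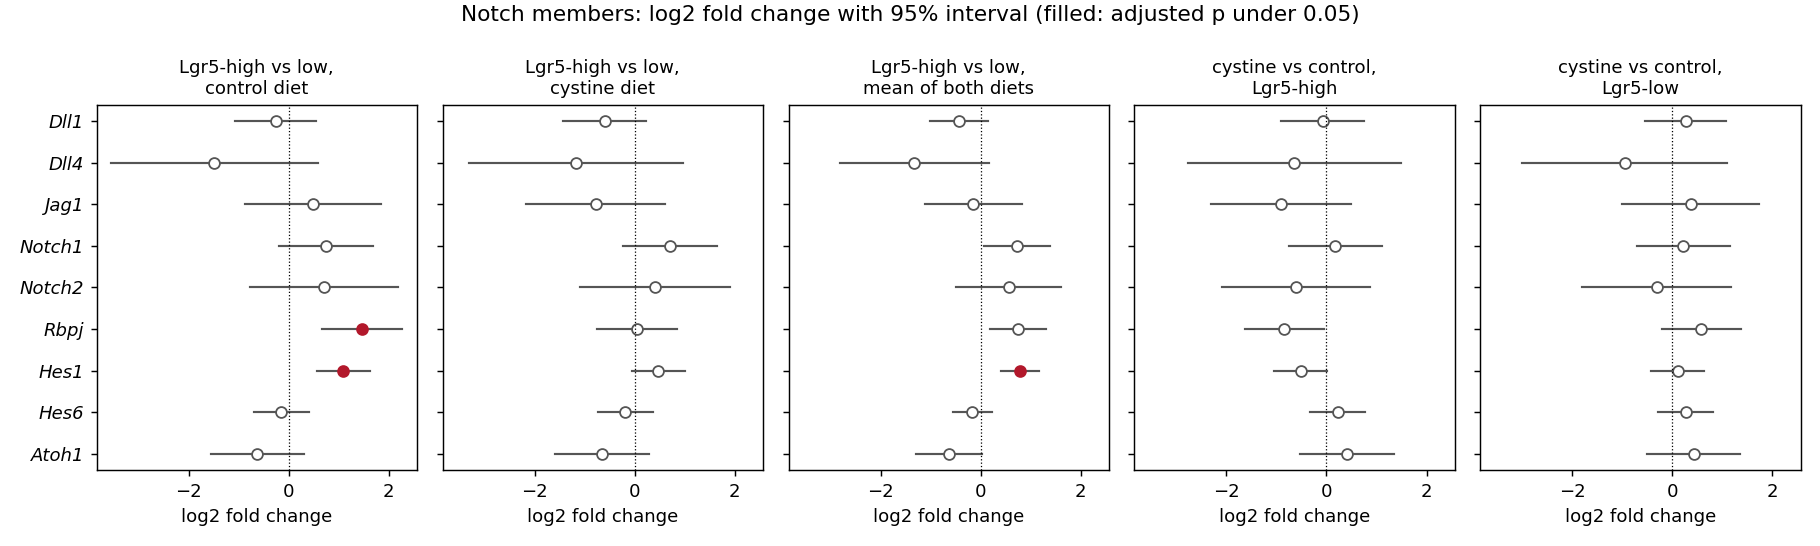
Each panel plots the log2 fold change (x axis) of the 9 tested genes with its 95% interval for 1 comparison; filled points passed the threshold of 0.05 on the adjusted p. Hes1 and Rbpj are filled between the populations on control diet and Hes1 in the mean of both diets, and the interval of Dll4 is the widest, for example -3.55 to 0.58 on control diet.

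The receptors were measured at lower levels and with wider errors. Notch1 (chromosome 2, 26457903 to 26516663, minus strand) ran from 2.97 to 22.1 CPM in Lgr5-high cells on cystine diet (median 13.2) and from 6.33 to 16.7 CPM in Lgr5-high cells on control diet (median 10.5). In Lgr5-low cells it ran from 1.33 to 16.5 CPM on cystine diet (median 5.74) and from 2.07 to 12.6 CPM on control diet (median 4.29). In Lgr5-high cells 6 of 7 libraries on cystine diet and all 7 on control diet lay above the Lgr5-low median of their diet, though the ranges overlapped. The log2 fold changes of Lgr5-high against Lgr5-low cells were 0.71 ± 0.46 on cystine and 0.75 ± 0.46 on control diet (SE, adjusted p = 0.505 and 0.543), and 0.73 ± 0.33 in their mean (adjusted p = 0.170). Antisense to Notch1, 0610009E02Rik overlaps 1488 bases of its gene span and held 211 counts beside 3220 for Notch1. Whether those bases lie in exons was not determined.

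Notch2 (chromosome 3, 98013527 to 98150361, plus strand) was scarcer, with medians of 2.99 and 2.60 CPM in Lgr5-high cells on cystine and control diet, against 1.02 and 1.78 CPM in Lgr5-low cells. Its libraries spread widely within each group, from 0.0693 to 7.18 CPM in Lgr5-low cells on cystine diet, for example. The log2 fold change in the mean of both diets was 0.56 with a 95% interval of -0.49 to 1.61, which excludes neither no change nor a change as large as that of Hes1. The predicted genes Gm42819 and Gm42820 lie on the same strand within Notch2 and held 51 and 30 counts, beside 858 for Notch2.

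Among the ligands, Dll1 was the most abundant per kilobase of exon in every group. Dll1 (chromosome 17, 15367354 to 15376872, minus strand), a ligand that secretory precursors present to their neighbours, ran from 0.349 to 13.4 CPM in Lgr5-high cells on cystine diet (median 9.59) and from 5.94 to 13.0 CPM in Lgr5-high cells on control diet (median 7.40). In Lgr5-low cells the range was 4.80 to 23.6 CPM on cystine diet (median 10.8) and 6.52 to 19.7 CPM on control diet (median 9.54). The groups overlapped, and the lowest value of all, 1 count, came from Lgr5-high cystine replicate 2. The log2 fold changes of Lgr5-high against Lgr5-low cells were -0.60 ± 0.41 on cystine and -0.26 ± 0.40 on control diet (SE), with 95% intervals of -1.43 to 0.22 and -1.07 to 0.56.

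Dll4 (chromosome 2, 119325784 to 119335962, plus strand), the partner ligand of Dll1 in the crypt, held 311 counts in all 28 libraries. It had 0 counts in 3 of 7 Lgr5-high libraries on cystine diet and in 1 of 7 on control diet, and at least 2 counts in every Lgr5-low library. Medians were 0.249 and 0.366 CPM in Lgr5-high cells on cystine and control diet, against 1.01 and 2.57 CPM in Lgr5-low cells. Lower medians in Lgr5-high cells on both diets went with log2 fold changes of -1.17 ± 1.06 on cystine and -1.49 ± 1.02 on control diet, and -1.33 ± 0.74 in their mean (SE, adjusted p = 0.677, 0.599 and 0.289). The ranges overlapped on both diets. The highest Lgr5-high library was replicate 3 on each, at 2.09 CPM on cystine and 3.90 CPM on control diet, where the next Lgr5-high libraries had 0.737 and 0.584 CPM. Without that library the log2 fold change was -2.14 on cystine diet (adjusted p = 0.375) and -3.00 on control diet (adjusted p = 0.204). On cystine diet 4 of 7 Lgr5-high libraries lay below all Lgr5-low ones. The antisense gene Gm14207 overlaps 411 bases of the Dll4 gene span and held more counts (387) than Dll4 itself. Whether those bases lie in exons was not determined. Whether the counting used strand is not given in the sources used here, so the Dll4 values are uncertain.

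Jag1 (chromosome 2, 137081456 to 137116644, minus strand), a ligand of the Serrate class, had medians of 1.49 and 2.55 CPM in Lgr5-high cells on cystine and control diet, against 2.36 and 2.10 CPM in Lgr5-low cells. The ranges were 0.728 to 2.79 and 0.253 to 8.83 CPM in Lgr5-high cells, and 0.879 to 5.43 and 0 to 4.94 CPM in Lgr5-low cells, in the same order of diets, and all overlapped. Its log2 fold change of Lgr5-high against Lgr5-low cells was -0.78 ± 0.69 on cystine diet and 0.49 ± 0.68 on control diet (SE, adjusted p = 0.665 and 0.839). Leaving out Lgr5-high control replicate 7, its highest library, gave -0.02 on control diet.

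Atoh1 (chromosome 6, 64729125 to 64731245, plus strand), the switch to the secretory lineage, had lower medians in Lgr5-high cells on both diets without passing the test. It ran from 0 to 12.6 CPM in Lgr5-high cells on cystine diet (median 7.33) and from 2.58 to 8.18 CPM in Lgr5-high cells on control diet (median 5.49), against 6.88 to 17.2 CPM (median 11.9) and 1.78 to 13.7 CPM (median 8.02) in Lgr5-low cells on these diets. Only 1 of 7 Lgr5-high libraries lay above the Lgr5-low median on either diet, and the ranges overlapped. The log2 fold changes were -0.65 ± 0.47 on cystine and -0.62 ± 0.46 on control diet (SE, adjusted p = 0.571 and 0.641), and -0.64 ± 0.33 in their mean (adjusted p = 0.246, 95% interval -1.30 to 0.03). Every setting and every library left out gave the same sign in these 3 comparisons. The library with 0 Atoh1 counts, Lgr5-high cystine replicate 3, held 3.47 M counts in total and had the highest macrophage sum, 691 CPM. Replicate 6 of that group had a macrophage sum of 646 CPM and Atoh1 at 11.8 CPM. The part of depth or macrophage markers in the Atoh1 values was not tested.

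Hes6 (chromosome 1, 91411483 to 91414038, minus strand), a relative that opposes Hes1 in the mouse nervous system, was the second gene of the set by level per kilobase. Its medians were 27.8 and 23.6 CPM in Lgr5-high cells on cystine and control diet, against 25.9 and 28.3 CPM in Lgr5-low cells. On cystine diet the ranges of 12.2 to 43.7 CPM in Lgr5-high cells and 22.1 to 63.8 CPM in Lgr5-low cells overlapped in part, with 3 of 7 Lgr5-high libraries below every Lgr5-low library. On control diet the Lgr5-high range of 15.5 to 30.1 CPM lay within the Lgr5-low range of 14.9 to 37.3 CPM. The log2 fold change in the mean of both diets was -0.17 with a 95% interval of -0.56 to 0.22, which excludes a rise as large as that of Hes1. The direction turned to 0.083 without the libraries under 5 M counts.

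Lfng (chromosome 5, 140607320 to 140615545, plus strand) was near the limit of detection. It held 13 counts over 8 of the 28 libraries, with none in the 7 Lgr5-high libraries on cystine diet. A count of 0 allows up to 3 counts, or 0.234 to 1.10 CPM in those libraries, counting error only. The other groups held 7 counts in Lgr5-high cells on control diet and 3 counts in each Lgr5-low group, so that no difference was detectable at this depth.

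Divided by the length of all annotated exons, the levels followed the order Hes1, Hes6, Atoh1, Dll1 in every group, and Lfng was last. The median of Hes1 was 43.2 and 64.4 CPM per kilobase in Lgr5-high cells on cystine and control diet, against 34.2 and 26.6 CPM per kilobase in Lgr5-low cells. Hes6 stood at medians of 15.4, 13.0, 14.3 and 15.7 CPM per kilobase in Lgr5-high cystine, Lgr5-high control, Lgr5-low cystine and Lgr5-low control libraries, and Atoh1 at 3.46, 2.59, 5.63 and 3.78 CPM per kilobase. The ranges of Hes1 and Hes6 did not overlap in the Lgr5-high groups and did in the Lgr5-low groups. Hes6 and Atoh1 did not overlap in any group, while Atoh1 and Dll1 did in all 4. Below Dll1 the order of Rbpj, the receptors, Jag1 and Dll4 differed from group to group, and neighbours in it overlapped, except Dll1 and Rbpj in Lgr5-low cells on cystine diet and Dll1 and Dll4 in Lgr5-low cells on control diet. The exons of Rbpj sum to 12.8 kilobases while its longest transcript has 5.49, so its place depends on the length used: its medians were 0.549, 0.879, 0.540 and 0.302 CPM per kilobase of all exons and 1.3, 2.0, 1.3 and 0.70 per kilobase of the longest transcript, in the same order of groups.

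A ratio of Atoh1 to Hes1 within a library does not depend on scaling between libraries. On cystine diet it ran from 0 to 0.178 in Lgr5-high libraries (median 0.0936) against 0.117 to 0.288 in Lgr5-low libraries (median 0.147). On control diet the Lgr5-high libraries held 0.0197 to 0.0668 (median 0.0381) and the Lgr5-low libraries 0.0632 to 0.278 (median 0.154), so that the groups met only at their edges. The ratio of Hes6 to Hes1 had medians of 0.282 and 0.167 in Lgr5-high cells on cystine and control diet, against 0.519 and 0.360 in Lgr5-low cells. That of Dll1 to Dll4 counts had medians of 48.0 and 35.5 in Lgr5-high cells on cystine and control diet. In Lgr5-low cells the medians were 9.11 and 5.09. Libraries with no Dll4 were counted as the highest, and only 4 and 6 of 7 Lgr5-high libraries on these diets had a finite ratio. The groups overlapped on both diets. Lgr5-high libraries began at 3.5 and 2.90, and Lgr5-low libraries ran from 4.75 to 76 and from 1.83 to 49.5. These ratios were described and not tested.

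**Figure D3:**
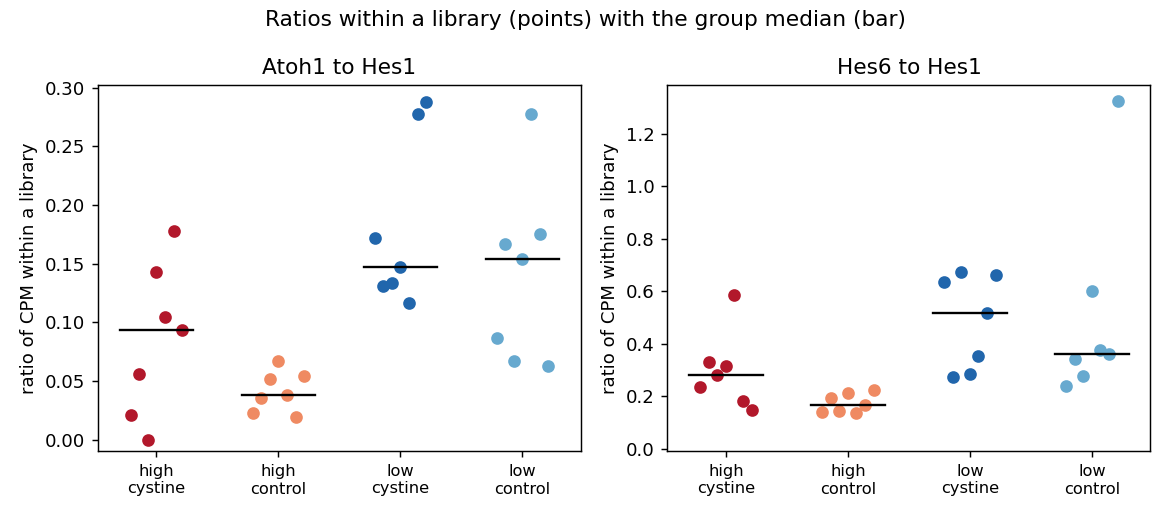
The panels plot the ratio of Atoh1 to Hes1 (left) and of Hes6 to Hes1 (right) on linear axes, with a point per library and a bar at the median of each group of 7. On control diet the Atoh1 to Hes1 ratio stays at or below 0.0668 in Lgr5-high libraries, where the lowest Lgr5-low library has 0.0632; the highest Hes6 to Hes1 ratio, 1.33, belongs to a Lgr5-low control library.

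The next comparison asked what the cystine diet did within each population. In Lgr5-high cells none of the 9 genes passed, where 0.168% of all tested genes did. At an unadjusted p under 0.05 the count was 1, Rbpj, beside 4.282% of all tested genes, and DESeq2 and limma-voom called none. Rbpj ran from 4.03 to 12.5 CPM on cystine diet (median 7.0) against 6.62 to 21.3 CPM on control diet (median 11.2), and 6 of 7 cystine libraries lay below the control median. Its log2 fold change was -0.84 ± 0.39 (SE, unadjusted p = 0.0388 in edgeR, adjusted p = 1.0). For Hes1, 5 of 7 cystine libraries lay below all control libraries, with medians of 88.0 CPM on cystine and 131 CPM on control diet, and the log2 fold change was -0.52 ± 0.26 (SE, 95% interval -1.04 to 0.01). Jag1 had -0.91 ± 0.69, Notch2 -0.61 ± 0.73 and Atoh1 0.41 ± 0.47 (SE), and the median of the 9 was -0.52 beside -0.02 over all tested genes. In this comparison the macrophage marker sum was higher in 6 of the 7 cystine libraries than in every control library, and library depth was lower (median 5.32 M counts on cystine and 15.4 M on control diet); neither was tested for its part in these values.

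In Lgr5-low cells the diet again gave no call among the 9 genes, and 0 of all 12495 tested genes passed in edgeR; at an unadjusted p under 0.05 there were 0 of 9 and 371 of 12495 (2.969%), and DESeq2 and limma-voom called none of the 9. Rbpj had medians of 6.89 CPM on cystine and 3.85 CPM on control diet and a log2 fold change of 0.58 ± 0.39 (SE). Hes1 had 69.6 and 54.1 CPM (0.10 ± 0.26) and Atoh1 11.9 and 8.02 CPM (0.43 ± 0.46) on these diets. Of the 9 values 7 were positive, with a median of 0.26 beside -0.0041 over all tested genes.

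The difference between the diet effects, Lgr5-high minus Lgr5-low, was tested as an interaction and passed for none of the 9 genes and for none of all tested genes in edgeR; DESeq2 and limma-voom called none of the 9. At an unadjusted p under 0.05 the count was 1 of 9, beside 3.321% of all tested genes. That gene was Rbpj, at -1.42 ± 0.56 (SE, unadjusted p = 0.0145, adjusted p = 1.0, 95% interval -2.55 to -0.30), and with the counts of its processed copy added the value was -0.79. Hes1 followed with -0.62 ± 0.37 (SE, 95% interval -1.37 to 0.13) and Jag1 with -1.27 ± 0.96. For Hes1 and Rbpj, a call between the populations on control diet and none on cystine diet is therefore not shown to be a difference between the diets. The comparisons on each diet and those within each population share their libraries, so that their values are not independent of each other.

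The labels do not give the sex of the animals. By Xist above 50 CPM, control replicates 1 to 3 and cystine replicates 1 and 2 of both populations formed a male class and the others a female class. In the female class the control diet log2 fold change of Hes1 was 1.40 ± 0.24 (SE, adjusted p = 0.00124, 4 libraries against 4) and in the male class 0.85 ± 0.23 (adjusted p = 0.135, 3 against 3), both from edgeR fits to that class. For Rbpj the values were 1.10 ± 0.42 (adjusted p = 0.140) and 2.31 (adjusted p = 0.355). In the mean of both diets Hes1 had 0.90 (adjusted p = 0.000426) and 0.70 (adjusted p = 0.0447).

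The rest of the pathway was described from a list of 66 further genes, of which 43 were tested. Among those that were not, the canonical targets Hes5, Hey1, Heyl and Hey2 held 27, 22, 4 and 0 counts over all 28 libraries, and the receptor Notch3 and the inhibitory ligand Dlk1 held 0. Between the populations, edgeR called 0 of 43 on control diet and 0 on cystine diet, with 5 on each at an unadjusted p under 0.05, where 12.86% and 15.53% of all tested genes lay. DESeq2 called 0 on control diet and 1 on cystine diet, Cir1, and limma-voom called 2, Dtx4 and Neurl3, and 1, Ncstn. The shares of all tested genes given here are those of edgeR, so the DESeq2 and limma-voom counts have no background beside them. In the mean of both diets 2 of 43 passed, both higher in Lgr5-high cells; 3.75% of all tested genes were called higher there. The median log2 fold change of the 43 was -0.0032, beside -0.02 over all tested genes.

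Cir1, which recruits histone deacetylases to RBPJ, ran from 6.54 to 22.7 CPM in Lgr5-high cells on cystine diet (median 13.2) and from 6.46 to 18.8 CPM on control diet (median 10.4), against 2.59 to 9.78 CPM (median 6.44) and 2.96 to 9.72 CPM (median 5.72) in Lgr5-low cells. The groups overlapped on both diets. The log2 fold change was 0.97 ± 0.26 (SE, adjusted p = 0.0127), and it passed in all 8 other settings and without each of the 28 libraries. Dtx4, a Deltex ubiquitin ligase that acts on Notch receptors, had medians of 17.0 and 17.9 CPM in Lgr5-high cells on cystine and control diet, against 12.3 and 7.16 CPM in Lgr5-low cells. Its log2 fold change was 0.74 ± 0.24 (SE, adjusted p = 0.0482), at the edge of the threshold: with a library left out in turn it passed without Lgr5-high control replicate 1 or 2, Lgr5-low cystine replicate 2 or Lgr5-low control replicate 2 and failed without any of the other 24 (adjusted p up to 0.119), and it passed in 5 of 8 other settings.

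None of the genes for the proteases that cut the receptor, gamma-secretase subunits included, passed in edgeR. Of 10 tested, 7 had negative and 3 positive log2 fold changes in the mean of both diets, from -0.66 to 1.24, with a median of -0.25. On cystine diet alone 5 were positive and 5 negative, with a median of -0.076. Ncstn, the gamma-secretase subunit nicastrin, had medians of 11.0 and 15.6 CPM in Lgr5-high cells on cystine and control diet, against 19.9 and 20.6 CPM in Lgr5-low cells (log2 fold change -0.66 ± 0.22, SE, adjusted p = 0.0540). Adam10, the enzyme of the first cut, had medians of 26.5 and 23.2 CPM in Lgr5-high cells on these diets, against 35.3 and 32.7 CPM in Lgr5-low cells (-0.40 ± 0.15, adjusted p = 0.0891). With limma-voom, Adam10, Ncstn and Aph1a passed in this comparison, each lower in Lgr5-high cells. The share of all tested genes that limma-voom called is not given here, so these calls have no background beside them. Over the settings, the count of other pathway genes called in this comparison ran from 1 to 8.

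On single diets, the genes of lowest p were Dtx4 (1.04, adjusted p = 0.121) and Snw1, a coactivator (0.56, adjusted p = 0.159), on control diet, with Neurl3 (-0.70, adjusted p = 0.234), of the Neuralized family of ubiquitin ligases, and Ncstn (-0.57, adjusted p = 0.462) on the negative side. On cystine diet they were Cir1 (1.03, adjusted p = 0.133) and Poglut1, which adds glucose to Notch (0.50, adjusted p = 0.572), with the gamma-secretase subunit Aph1a (-0.99, adjusted p = 0.0869) on the negative side. None of these passed.

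For the diet, none of the 43 passed in either population or in the difference, in edgeR, DESeq2 or limma-voom, where edgeR called 0.168% of all tested genes in Lgr5-high cells and none in Lgr5-low cells or in the difference. At an unadjusted p under 0.05 the counts of the 43 were 1, 1 and 0, beside 4.282%, 2.969% and 3.321% of all tested genes. In Lgr5-high cells the lowest p belonged to Aph1a (-0.68) and Tle4, a Groucho corepressor (-0.49), on the negative side and to Fbxw7, which targets Notch for degradation (0.64), and Ctbp1, a corepressor (0.68), on the positive side. In Lgr5-low cells they were Neurl1b (-1.13), Tle1 (-0.53), Dtx4 (0.55) and Ep300 (0.50), and in the difference Aph1a (-0.82), Hdac1 (-0.47), Ctbp1 (1.04) and Psenen (0.44), all as log2 fold changes each with adjusted p = 1.0 in edgeR. Nrarp, a feedback inhibitor of Notch and the tested gene nearest to a second target readout, had medians of 8.28 and 5.64 CPM in Lgr5-high cells on cystine and control diet, against 7.62 and 5.92 CPM in Lgr5-low cells, with overlapping ranges. Its log2 fold change between the populations was -0.115 in the mean of both diets, where Hes1 had 0.78. For the diet it was 0.63 in Lgr5-high cells, where Hes1 had -0.52, and 0.38 in Lgr5-low cells. Nrarp passed in none of these.

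**Figure D4:**
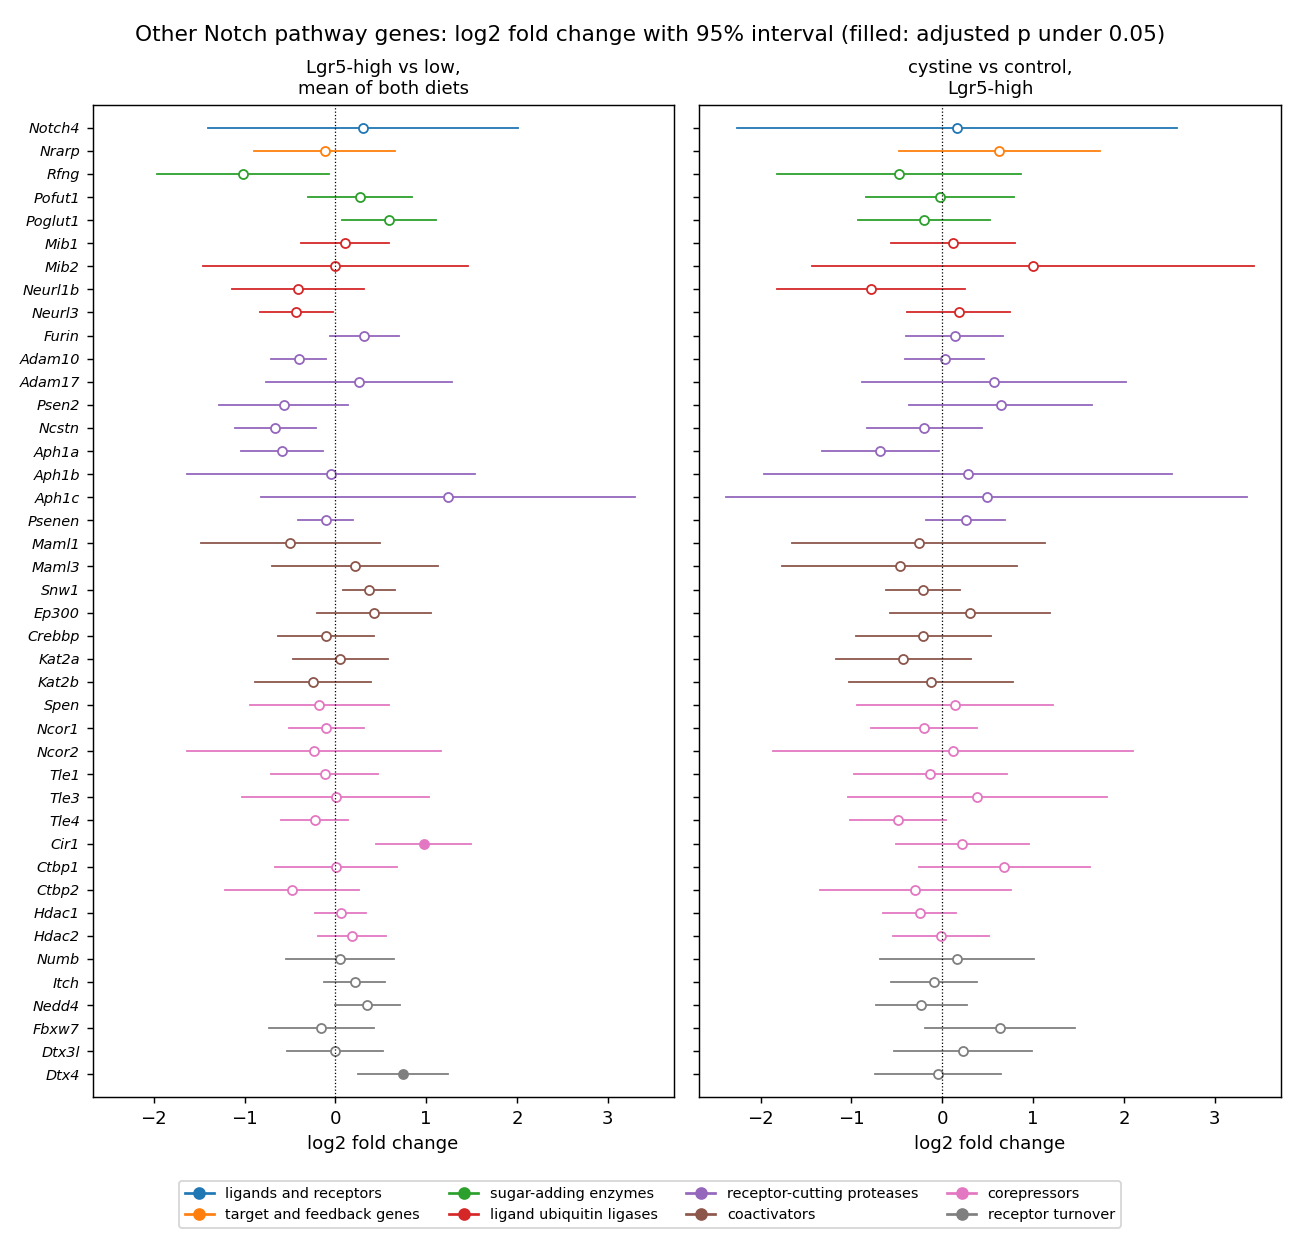
The panels plot the log2 fold change (x axis) with its 95% interval for 42 of the 43 tested genes of the wider pathway, coloured by role; filled points passed the threshold of 0.05 on the adjusted p. Cir1 and Dtx4 are the filled points, in the mean of both diets, at 0.97 and 0.74.

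Lineage factors that act with or after Hes1 and Atoh1 were taken from a list of 28 secretory and 16 absorptive genes, of which 24 and 16 were tested. In the mean of both diets 3 secretory factors rose and 4 fell in Lgr5-high cells, and 0 absorptive factors rose and 4 fell, where 3.75% of all tested genes were called higher and 5.05% lower. Markers of mature cells are given beside these counts, and their part in these values was not tested. In the mean of both diets all 8 Paneth markers had positive log2 fold changes, and 0 were called. Their sum had medians of 73000 and 79960 CPM in Lgr5-high cells on cystine and control diet, against 70700 and 42370 CPM in Lgr5-low cells. Of 10 enteroendocrine markers 9 were called lower in Lgr5-high cells, and their sum had medians of 199.5 and 154 CPM in Lgr5-high cells on cystine and control diet, against 539 and 590 CPM in Lgr5-low cells. Of 10 enterocyte markers 2 were called lower and all 10 had negative log2 fold changes, with sums of 5908 and 6996 CPM (medians) in Lgr5-high cells on these diets, against 12620 and 7729 CPM in Lgr5-low cells. Among the secretory factors that fell, Spdef, downstream of Atoh1 in goblet and Paneth cells, had medians of 2.66 and 1.88 CPM in Lgr5-high cells on cystine and control diet, against 6.91 and 10.6 CPM in Lgr5-low cells (log2 fold change -1.62 ± 0.46, SE, adjusted p = 0.0215). Creb3l4 (-0.98, adjusted p = 0.000303), Xbp1, a factor of the secretory apparatus (-0.81, adjusted p = 0.000446), and Klf4, of goblet cells (-1.18, adjusted p = 0.0151), fell as well. Those that rose were the stem cell factor Ascl2 (1.85, adjusted p = 9.64e-07), which is also among the stem markers, Sox9 (0.63, adjusted p = 0.0264) and Sox4 (0.72, adjusted p = 0.0387). Sox9 and Sox4 are known from progenitors as well as from Paneth and tuft cells. Sox9 lost its call without Lgr5-low cystine replicate 7 (adjusted p = 0.0518). Sox4 lost it without Lgr5-high cystine replicate 1, 3 or 5, Lgr5-high control replicate 3, 5 or 7, Lgr5-low cystine replicate 1, 6 or 7, or Lgr5-low control replicate 1, 3, 6 or 7, with adjusted p between 0.0504 and 0.0754.

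Gfi1, a direct target of Atoh1, and Neurog3, the switch to enteroendocrine cells, stayed at or below 4.31 and 7.50 CPM in every library. The absorptive factors that fell were Isx (-0.83, adjusted p = 0.00237), Hnf4g (-0.80, adjusted p = 0.00374), Klf5 (-0.54, adjusted p = 0.0142) and Gata4 (-0.65, adjusted p = 0.0303). Klf5 lost its call without the libraries under 5 M counts (adjusted p = 0.115), and Gata4 without Lgr5-low control replicate 7 (adjusted p = 0.0727) or Lgr5-low cystine replicate 7 (adjusted p = 0.0576). On control diet alone Ascl2 (1.86, adjusted p = 0.00105) and Creb3l4 (-1.34, adjusted p = 0.00297) passed, and on cystine diet Ascl2 (1.83, adjusted p = 0.000935), Xbp1 (-0.84, adjusted p = 0.0241) and Isx (-0.99, adjusted p = 0.0297). Xbp1 lost the cystine diet call without Lgr5-high or Lgr5-low cystine replicate 7 (adjusted p = 0.0581 and 0.0691), and Isx without Lgr5-high cystine replicate 3, 4 or 5 or Lgr5-low cystine replicate 1, 2 or 7 (adjusted p up to 0.0805) or without the libraries under 5 M counts (adjusted p = 0.191). No factor of either list passed for the diet in edgeR; at an unadjusted p under 0.05 the counts over both lists were 2 secretory and 1 absorptive in Lgr5-high cells, and 2 and 0 in Lgr5-low cells, beside 4.282% and 2.969% of all tested genes. In Lgr5-high cells those of lowest p were Id2 (0.58) and Ascl2 (0.63) on the positive side and Pax6 and Creb3l1 (-1.26) on the negative side; Pax6 held 1 count in the cystine libraries together and 35 in the control libraries, too few for a fold. In Lgr5-low cells they were Sox4 (0.85), Ascl2 (0.66), Maf (-0.72) and Klf5 (-0.29), and in the difference Creb3l4 (0.72), Id2 (0.51), Hnf4a (-0.41) and Sox4 (-0.77).

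The genes most like each member over the 28 libraries, by Pearson's r of log2 CPM, were described without a test, since all points share the depth and composition of their library. Hes1 was closest to the ribosomal protein genes Rps27 (r = 0.862) and Rps28 (r = 0.859) and the processed copy Rpl36a-ps1 (r = 0.848). With the group means removed these were 0.852, 0.850 and 0.794. For no other member did the closest gene exceed 0.797, the value of Mindy2 with Jag1. Rbpj was closest to Smc5 (0.741), Klf9 (0.731) and Hjurp (0.726), Atoh1 to Mtg1 (0.737), Slco2a1 (0.725) and Coa4 (0.716), and Hes6 to Rpl31-ps9 (0.703), Tmem176a (0.700) and Ecsit (0.661). Notch1 was closest to Zfp760 (0.716), Firre (0.688) and Csnk1e (0.679), and Notch2 to Mnat1 (0.636), Tmem237 (0.631) and Trmt10a (0.610). Dll1 was closest to Oas1g (0.769), Socs4 (0.761) and Dpep1 (0.742), Dll4 to Acadvl (0.648), Mul1 (0.645) and Slc22a23 (0.621), and Jag1, after Mindy2, to Mafg (0.717) and Cog2 (0.716).

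Within the set itself no pair came near these values. The genes above were picked as the highest over all candidate genes, so this contrast says nothing about the set. The highest r was 0.499, between Notch1 and Rbpj (0.385 within groups), and the lowest -0.371, between Dll4 and Rbpj. Hes1 and Rbpj, the pair called on control diet, had r = 0.201 over all libraries and -0.399 with the group means removed. Hes1 and Atoh1 had r = 0.0119 and 0.291. At the depth of these libraries and the low counts of most members, weak values of r are no finding.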

How the data were processed

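Poly(A)-selected RNA of sorted Lgr5-high and Lgr5-low cells was sequenced in 28 libraries, with a kit that keeps strand, per the labels' protocols. The values are estimated counts per gene, deposited by the authors as whole numbers in 1 table. Per the submitters' processing notes they came from Salmon 1.3.0 with build mm10. Of the annotation, the filters and the use of strand in counting, the sources used here say nothing. Salmon divides reads between similar transcripts by a model, which bears on Rbpj and its processed copy.

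Totals ran from 2.75 to 21.5 M (mega) counts per library, and the common biological coefficient of variation was 0.629. The 95% intervals of fold changes come from the spread between libraries, and the floor for a count of 0 covers counting error only. Levels are CPM scaled by TMM factors. Tests used the robust quasi-likelihood method of edgeR 4.0.16 (R 4.3.3) on the deposited estimated counts, with the 4 group means over all 28 libraries, filterByExpr, two-sided p-values and Benjamini-Hochberg adjustment over 12495 genes at a threshold of 0.05. The fit was also run on counts simulated from the gene totals and dispersions of these data, with the outcome not given here. All 84 pairs of libraries of the same group differed by more than sampling noise (chi-square per gene 13.9 to 226).

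The 10 members are named in every comparison. Of the 66 pathway genes and 44 lineage factors, those past the threshold are named, at most 8 by lowest p, or else the 2 of lowest p in each direction, as not passing; for each member, the 3 most alike genes with a mean of at least 2 CPM. One gene that this rule names is not reported here. Other genes named were chosen after their values were seen. Members and lists were chosen with earlier results of these data known. Alternatives were DESeq2 1.42.0, limma-voom (limma 3.58.1), RLE size factors, other low-count filters, only the compared groups, a replicate block, a sex class term, no libraries under 5 M counts and each library left out. Shares of all tested genes called are given for the main edgeR fit only. Summing Rbpj with its copy was added after the data were seen. Gene positions are from GENCODE M21 (GRCm38).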

Additional observations from a re-analysis of the deposited data

Results flagged for a closer look

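Dixon's criterion at 95% set the highest or lowest library against its nearest neighbour in 39 sets of 7 library values. These were the members by group, leaving out sets with no spread. For normally distributed values, chance passes it in about 1 of 20 sets. The CPM values were used on a linear scale and some sets hold few counts, so this rate may not hold here. The criterion was passed in 5 sets. Dll4 stood at 2.09 CPM (8 counts) in Lgr5-high cystine replicate 3, where the next library had 0.737 CPM, and at 3.90 CPM (52 counts) in Lgr5-high control replicate 3, where the next had 0.584 CPM. Jag1 stood at 8.83 CPM (145 counts) in Lgr5-high control replicate 7, next to 3.44 CPM. Hes6 stood at 63.8 CPM (222 counts) in Lgr5-low cystine replicate 1, next to 34.6 CPM. Lfng stood at 0.643 CPM in Lgr5-low control replicate 2, which is 3 counts, with 0 in the other 6 libraries of that group. Without Lgr5-high control replicate 3, the log2 fold change of Dll4 between Lgr5-high and Lgr5-low cells on control diet was -3.00 in place of -1.49.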

How the results depend on the processing

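Between the populations on control diet, 2 members were called, and 1 with no low-count filter, with the other groups left out of the fit, with limma-voom or with Rbpj and Rbpj-ps3 summed (Hes1 each time), 0 without the libraries under 5 M counts, and 0 to 2 with a library left out. In the mean of both diets the count of 1 became 2 with a sex class term or DESeq2, and was 1 to 2 with a library left out. The other settings kept the member counts, at 0 for cystine diet and for each diet effect. Of the other pathway genes, the count of 0 on control diet was 1 with a sex class term (Snw1), 1 without the libraries under 5 M counts (Dtx4) and 2 with limma-voom; the count of 2 in the mean of both diets was 1 to 8 over the settings. The replicate number was not used as a block: same-numbered libraries of the 2 populations correlated by 0.0733 to 0.239 on control diet and -0.083 to 0.17 on cystine diet, and 4 and 3 of 7 Lgr5-high libraries correlated best with their own number. With the replicate block the members called stayed at 2, 0 and 1 for control diet, cystine diet and their mean, while all calls on control diet went to 409 in place of 225; Spdef (adjusted p = 0.0525), Gata4 (0.0708) and Dtx4 (0.0619) no longer passed in the mean.

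Signs turned only for members that had not passed, and the cause was not tested. Without the libraries under 5 M counts, Hes6 between the populations became 0.19 on cystine diet and 0.083 in the mean, Rbpj on cystine diet became -0.19, the diet effect in Lgr5-high cells became -0.14 for Notch1 and 0.23 for Dll1, that in Lgr5-low cells -0.086 for Dll1 and -0.087 for Hes1, and the difference of diet effects 0.55 for Notch2, 0.32 for Dll1, -0.98 for Dll4, 0.22 for Hes6 and 0.23 for Atoh1. With limma-voom, Hes6 and Rbpj on cystine diet became 0.0018 and -0.070, Notch1 in Lgr5-high cells -0.040, Dll1 in Lgr5-low cells -0.15, and the difference 0.11 for Dll1 and 0.090 for Hes6. With a sex class term, Dll1 in Lgr5-high cells became 0.025 and the difference 0.021 for Notch1 and 0.0037 for Atoh1. With RLE size factors the difference was 0.012 for Notch1, 0.00019 for Hes6 and 0.021 for Atoh1, with DESeq2 0.013, 0.00086 and 0.021, and with the replicate block 0.24 for Notch2.

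With a library left out in turn, signs turned within these ranges. Between the populations, Hes6 (-0.35 to 0.049) and Rbpj (-0.12 to 0.19) turned on cystine diet and Jag1 on control diet (-0.022 to 0.79) and in the mean (-0.40 to 0.0068). The diet effect in Lgr5-high cells ran from -0.24 to 0.098 for Dll1 and from -1.62 to 0.85 for Dll4, and in Lgr5-low cells from -0.025 to 0.28 for Hes1, -0.098 to 0.43 for Notch1 and -1.04 to 0.0022 for Notch2. The difference ran from -0.25 to 0.23 for Atoh1, -0.62 to 1.83 for Dll4, -0.21 to 0.19 for Hes6, -0.24 to 0.28 for Notch1 and -0.63 to 0.40 for Notch2. Depth limits Dll4, Jag1, Notch2 and Lfng most, with medians under 3 CPM in every group.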

Other observations

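The share of counts in 89 ribosomal protein genes, of which Hes1 was closest to Rps27 and Rps28, had medians of 10.4% in Lgr5-high cells on cystine diet, 10.4% in Lgr5-high cells on control diet, 10.3% in Lgr5-low cells on cystine diet and 8.37% in Lgr5-low cells on control diet, with ranges of 8.51% to 14.3%, 9.68% to 13.2%, 6.62% to 11.5% and 6.79% to 13.9%. The share of counts in mitochondrial genes had medians of 20.5% and 17.7% in Lgr5-high cells on cystine and control diet, against 14.9% and 16.9% in Lgr5-low cells. The part of these shares in the Hes1 values was not tested.

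Neurl3, a ubiquitin ligase of the Neuralized family, and Rfng, a fringe enzyme like Lfng, had negative log2 fold changes in both comparisons of Lgr5-high with Lgr5-low cells. Rfng had medians of 1.80 and 2.62 CPM in Lgr5-high cells on cystine and control diet, against 4.47 and 4.91 CPM in Lgr5-low cells, with overlapping ranges. It passed in the mean of both diets with limma-voom but not in edgeR. The share of all tested genes that limma-voom called is not given here.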
